A study of Mus musculus with 18 samples.

Results

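The genes of the respiratory chain and ATP synthase were followed in mouse basophils. Members were the genes whose symbols mark them as subunits of complexes I to V, in the nuclear genome (Nduf, Sdh, Uqcr, Cox and Atp5 series) or in mitochondrial DNA (mt-Nd, mt-Cytb, mt-Co and mt-Atp), without symbols marked -ps and with a mean of at least 50 estimated counts over 18 libraries. The rule found 91 of 56413 genes in the deposited table, 78 nuclear and 13 mitochondrially encoded, and 105 genes matched the symbols before the count minimum was applied. All 91 members passed the low-count filter and were tested. The nuclear members were 37 of complex I, 4 of complex II, 8 of complex III, 12 of complex IV and 17 of ATP synthase (complex V). Ndufb4c and Ndufb1, kept by their symbols, are not protein-coding in GENCODE M21: Ndufb4c is typed there as a processed pseudogene and is identical to Ndufb4 over 390 aligned bases, and Ndufb1 as a non-coding RNA. Of the 11 comparisons, edgeR called Ndufb4c in none and Ndufb1 in 1, higher in TTP-KO than in WT after 4 h of antigen. The mitochondrial members were 7 of complex I, 1 of complex III, 3 of complex IV and 2 of ATP synthase. The lowest members were Ndufa12, Ndufb4 and Ndufa5 at mean counts of 50.3, 55.8 and 68.1, and the nearest genes below the minimum were Cox6b2, Atp5mc2 and Cox6c2 at 23.2, 18.4 and 12.9.

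The libraries came from basophils grown for 7 days from WT or TTP-KO bone marrow in 0.3 ng/mL IL-3, loaded with 1 µg/mL of IgE against the hapten TNP on day 6 and enriched magnetically for CD49b. TTP (tristetraprolin, gene Zfp36) is a protein that binds AU-rich mRNAs and speeds their decay. Each sample of 50000 cells received control OVA at 10 ng/mL for 2 h, or TNP-OVA, the antigen that crosslinks the IgE, at 10 ng/mL for 2 h or 4 h. The 6 groups of 3 libraries are therefore the WT and TTP-KO control, antigen 2 h and antigen 4 h groups, all of them IgE-loaded, and antigen at 4 h is compared with a control taken at 2 h. Whether the 3 libraries of each group are separate animals, separate cultures or repeats of 1 culture is not in the labels, and p-values therefore cover the spread of these libraries, which may be technical.

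The respiratory chain passes electrons from NADH (complex I) and succinate (complex II) through ubiquinone, complex III and cytochrome c to oxygen at complex IV, and ATP synthase uses the proton gradient made on the way. Its subunits are made from both genomes: mitochondrial DNA encodes core subunits of complexes I, III, IV and V, the nucleus encodes the rest, and complex II is wholly nuclear. The factors NRF1, NRF2 (GABP), YY1 and ERRα with the PGC-1 coactivators are known regulators of nuclear respiratory genes.

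The promoters of members are shown here because binding motifs of these factors were a feature that the choice of members did not use. A RefSeq promoter window of 300 bases (GRCm38.p6, from 250 before to 50 after the gene start) was matched for 64 of 78 nuclear members, and each motif was searched on both strands. The NRF1 motif (GCGC, then any base, then TGCGC) was in 17 of 64 member promoters (26.6%) against 7.17% of 17491 coding genes. The YY1 motif AAGATGGC was in 10 (15.6% against 3.57%), the GABP motif CCGGAAG in 16 (25% against 12.9%) and the CREB motif TGACGTCA in 4 (6.25% against 2.54%). A match is a description of the letters only. Windows are printed for members whose values are given below, on the strand of the gene, with the motif in capitals.
Ndufs6, NRF1 motif, chr13:73328483-73328518, minus strand: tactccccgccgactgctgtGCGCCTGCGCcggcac
Sdhd, NRF1 motif, chr9:50603899-50603948, minus strand: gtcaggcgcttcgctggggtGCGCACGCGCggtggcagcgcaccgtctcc
Atp5f1c, NRF1 motif, chr2:10080433-10080469, minus strand: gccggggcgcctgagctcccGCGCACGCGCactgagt
Ndufs3, GABP motif, chr2:90904722-90904768, minus strand: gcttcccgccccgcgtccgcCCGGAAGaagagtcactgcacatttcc
Uqcr11, GABP motif, chr10:80406861-80406907, minus strand: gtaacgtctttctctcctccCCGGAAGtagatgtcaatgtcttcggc
Atp5pf, YY1 motif, chr16:84835037-84835084, minus strand: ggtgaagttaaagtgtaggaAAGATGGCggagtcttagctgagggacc
Ndufa10, CREB motif, chr1:92473798-92473845, minus strand: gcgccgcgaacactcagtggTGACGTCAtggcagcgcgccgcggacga

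Library totals ran from 5516580 to 12733172 estimated counts. Zfp36 RNA was at 224, 239 and 247 CPM (counts scaled to a common library size) in the WT control libraries and at 219, 228 and 225 in those labelled TTP-KO, and after 2 h of antigen at 446, 460 and 439 against 568, 553 and 572. The RNA level does not check the TTP-KO label, since it was no lower there and the altered part of the gene is not stated. All 10 basophil markers were present, with summed levels from 24655 to 33368 CPM over the libraries. Levels of all genes are given as CPM scaled by TMM (trimmed mean of M values). Relative to raw shares of the library, and with the WT control as reference, this scaling raised all genes by 0.32 (log2) in WT and 0.30 in TTP-KO after 2 h of antigen. After 4 h the shift was 0.12 and 0.10, and in the TTP-KO control it was -0.03. Every CPM difference below is relative to these shifts.

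The mitochondrially encoded genes spanned a wide range of levels, from a mean of 62963 counts for mt-Co1, the catalytic core of complex IV, to 383 for mt-Nd3. Nuclear DNA carries copies of mitochondrial genes, and reads that fit both places were divided between them: the copy Gm28437 held a mean of 28594.2 counts against 5735.3 for mt-Co3, which encodes a core subunit of complex IV. mt-Co3 was at 599, 1356 and 649 CPM in the WT control libraries, 867, 252 and 448 in the TTP-KO control, 613, 1237 and 800 and then 1053, 805 and 230 after 2 h, and 924, 576 and 376 and then 767, 98.1 and 612 after 4 h, WT before TTP-KO each time. Summed with its copies, the same gene ran from 3599 to 4399 CPM over the 18 libraries. The pooled SD within groups fell by the same step from 0.99 to 0.04 on the log2 scale. mt-Co2 did likewise, from 0.65 to 0.05, and mt-Atp6 from 0.50 to 0.05.

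The share of these reads assigned to the mitochondrial gene itself ran from 2.48% to 32.8% over libraries for mt-Co3, from 4.79% to 29.2% for mt-Co2 and from 1.92% to 11.6% for mt-Atp6. The copies of mt-Atp6, mt-Co2 and mt-Co3 were Atp6-ps, Gm28661 and Gm28437, and mt-Nd4, mt-Nd4l and mt-Nd3 had the copies Gm28439, Gm10222 and Gm28438. The start of mt-Nd3, a small complex I subunit, is shown with its copy because the pair differs at 1 of 345 aligned bases (T3C, counted from the 5′ end of the mt-Nd3 transcript, in capitals).
mt-Nd3: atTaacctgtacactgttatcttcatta
Gm28438: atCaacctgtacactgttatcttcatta
mt-Nd3 took from 20.3% to 99.6% of the pair's reads. These 6 members have a copy holding more than 10% of their count, and their single values are therefore uncertain. The other 7 (mt-Nd1, mt-Nd2, mt-Nd5, mt-Nd6, mt-Cytb, mt-Co1 and mt-Atp8) had a median pooled SD of 0.07 (log2). Such a copy was also found for 6 nuclear members: Atp5mc1, Atp5mg, Cox7c, Ndufa12, Ndufb4 and Ndufs5. Genes overlapping their member in the genome were not taken as copies. One such gene, Gm49356, was identical to Ndufb9 over 202 bases and held 289.31 counts, 35.7% of the Ndufb9 count. Ndufb9 was not tested in sum with it.

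**Figure D1:**
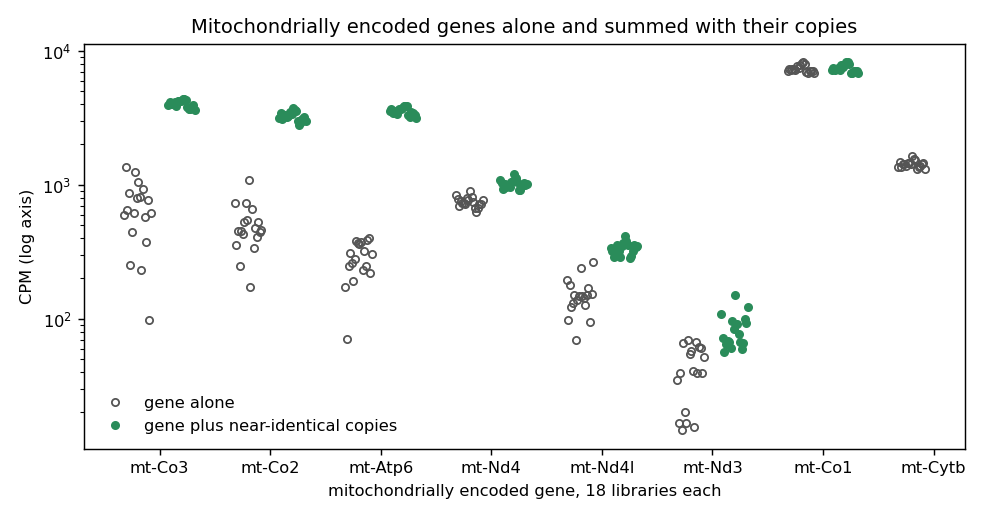
Levels of 8 mitochondrially encoded genes in 18 libraries, as CPM on a log axis. Open points show the gene alone and filled points the gene summed with its near-identical copies (mt-Cytb has no copy and no filled points). mt-Co3 spreads from 98.1 to 1356 CPM alone and from 3599 to 4399 CPM with its copies, while mt-Co1 stays between 6838 and 8191 CPM alone.

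Per kilobase of coding sequence, with copies summed, the order in the WT control was mt-Atp6 (5236 ± 201 CPM per kb, SD, n = 3), mt-Co3 (5142 ± 163), mt-Co2 (4753 ± 259) and mt-Co1 (4716 ± 66.8), where the ranges of 1 SD of neighbours in the order overlap. mt-Cytb, the mitochondrial subunit of complex III, followed at 1223 ± 67.4. The highest nuclear members were Cox8a (977 ± 227) and Cox4i1 (907 ± 54.8), both complex IV subunits, and Atp5mc3 (903 ± 58.5), one of the genes for the proton-carrying c ring of ATP synthase. The 1 SD ranges of these 3 overlap that of mt-Nd1 (952 ± 38.1). At the low end of the succinate dehydrogenase genes, Sdha, which encodes the flavoprotein, was at 41.2 ± 1.05 CPM per kb, below Sdhb (129 ± 12.1), Sdhc (129 ± 3.10) and Sdhd (159 ± 11.2). That order depends on the division by coding length, which leaves out untranslated parts of the transcripts. In CPM alone, Sdha (81.6) was above Sdhc (64.9) and Sdhd (75.5) and below Sdhb (109) in the WT control.

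Most isoforms known from muscle, lung, testis or hypoxia were nearly silent. Ndufa4l2 had a mean of 0.2 counts, Cox4i2 0.8, Cox6a2 2.2, Cox7a1 7.7 and Cox8b 0.1, and Cox8c and Cox7b2 were at 0, while the testis isoform Cox6b2 had 23.2. The widely expressed counterparts Ndufa4, Cox4i1, Cox6a1, Cox6b1, Cox7a2 and Cox8a were members. Of the c ring genes, Atp5mc3 stood at 903 CPM per kb against 144 ± 17.5 for Atp5mc1, and Atp5mc2 fell below the count minimum. Near-identical copies were searched for members only, so reads of Atp5mc2 or of the low isoforms that were assigned to a copy are not included.

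Nuclear members took a smaller raw share of the counts than mitochondrial ones in every group. In the WT control they held 0.752% ± 0.0601 of counts (SD, n = 3) against 1.47% ± 0.0473 for mitochondrial members alone and 2.54% ± 0.0721 with copies. The nuclear share was 0.770% ± 0.0122 in the TTP-KO control, 0.584% ± 0.0230 and 0.650% ± 0.0316 after 2 h of antigen, and 0.671% ± 0.0165 and 0.754% ± 0.0308 after 4 h, WT before TTP-KO. With copies, the mitochondrial share was 2.60% ± 0.0608 in the TTP-KO control, 2.12% ± 0.0153 and 2.29% ± 0.0458 after 2 h, and 2.21% ± 0.0404 and 2.31% ± 0.0520 after 4 h. Both shares were lowest in WT after 2 h, where the scaling shift of all genes, with the WT control as reference, was also largest.

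The ratio of nuclear to mitochondrial counts (log2, copies summed) was -1.73 in both controls, -1.83 in WT and -1.79 in TTP-KO after 2 h, and -1.69 and -1.58 after 4 h. Without copies it was -0.98, -0.94, -1.10, -1.03, -0.94 and -0.83 in the same order. No test was made of these sums, and the tests below are of single genes.

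**Figure D2:**
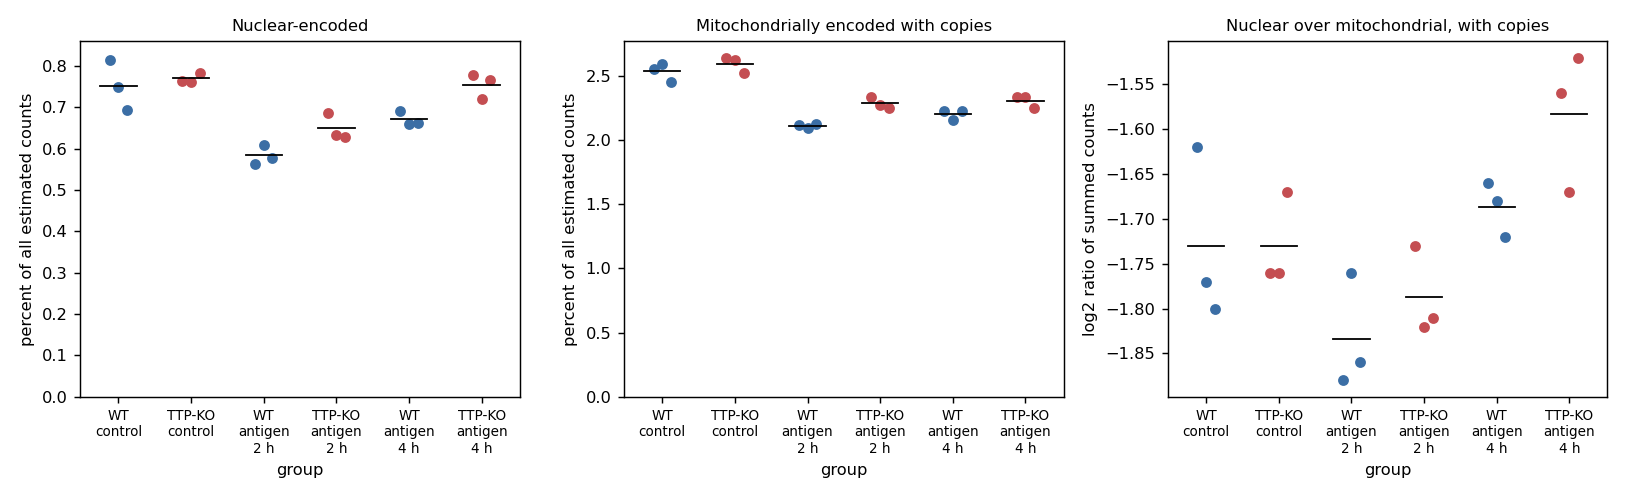
Share of all estimated counts held by nuclear members and by mitochondrially encoded members with copies, and the log2 ratio of the summed counts, in each of 18 libraries (points; WT blue, TTP-KO red; lines, group means). Both shares are lowest in WT after 2 h of antigen (0.584% and 2.12%), and the ratio is highest in TTP-KO after 4 h (-1.58).

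In WT basophils after 2 h of antigen, nearly all nuclear members that passed the test fell. Of 78 nuclear members, 16 fell and 1 rose (edgeR quasi-likelihood test, adjusted p under 0.05; 35.1% of all 14076 genes tested passed, 17.3% of them lower and 17.8% higher). The 17 called are 21.8% of the nuclear members, a smaller share than among all genes, and the 16 lower are 20.5%, near the share of all genes. They comprised 10 lower in complex I, which has 37 of the 78, 1 each in complexes II, III and IV, and 3 lower and 1 higher in ATP synthase. The median difference of nuclear members was -0.07 (log2) against -0.05 for all genes, and that of mitochondrial members was 0.05.

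Ndufa10, an accessory subunit of complex I, was at 65.9, 65.3 and 63.7 CPM in the WT control and at 51.5, 48.1 and 50.7 after 2 h. The groups did not overlap, and the difference was -0.38 (SE 0.07, edgeR adjusted p = 1.28e-04). Atp5f1c, the γ subunit that turns inside ATP synthase, was at 152, 137 and 145 against 123, 106 and 109 CPM, also without overlap (-0.36, SE 0.07, edgeR adjusted p = 5.32e-05). Ndufb10 (-0.36), Ndufs7 (-0.32), which carries an iron-sulfur cluster, Sdhd (-0.30), a membrane anchor of complex II, and Uqcrc2 (-0.29), a core protein of complex III, fell as well. Of these 6, Uqcrc2 alone lost its call when a library was left out (adjusted p = 0.0729 without WT antigen 2 h replicate 3). Ndufb4 fell by 0.82 alone, with overlapping libraries, but gave -0.25 (edgeR adjusted p = 0.257) when summed with its copy. It also lost the call without WT control replicate 1 (0.104) or WT antigen 2 h replicate 2 (0.138).

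Atp5mc3 rose where most others fell. It was at 380, 354 and 405 CPM in the WT control, 439, 424 and 426 after 2 h and 502, 488 and 516 after 4 h, 3 ranges that do not overlap. The 2 h difference was 0.18 (edgeR adjusted p = 0.00437, or 0.0515 without WT control replicate 2) and the 4 h difference 0.40 (SE 0.05, edgeR adjusted p = 7.08e-08). Cox7a2l, a protein that joins complexes III and IV into supercomplexes, went the other way at 203, 199 and 194 CPM in the control, 167, 179 and 152 after 2 h and 128, 131 and 120 after 4 h. Its ranges did not overlap either, and it fell by 0.26 (edgeR adjusted p = 2.17e-04) and by 0.66 (edgeR adjusted p = 3.14e-11). Both genes kept their 4 h call with each library left out in turn.

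After 4 h in WT, 4 nuclear members were higher and 14 lower than in the control, where 38.0% of all genes passed (19.6% higher and 18.4% lower). The 4 that rose were Atp5mc3, Atp5pb (0.25), part of the stalk of ATP synthase, Atp5f1b (0.24), its catalytic β subunit, and Uqcrc1 (0.23), a core protein of complex III. Atp5f1b was at 420, 426 and 413 CPM in the control and 483, 501 and 504 after 4 h, without overlap. Besides Cox7a2l, the largest decreases were in Ndufa6 (-0.65), Atp5if1 (-0.41), the inhibitor of ATP synthase, and Ndufb11 (-0.38). Atp5if1 lost its call without WT control replicate 1 (adjusted p = 0.0628), and the others named kept theirs. The nuclear median was -0.08 against -0.01 for all genes. The 2 h and 4 h comparisons share the control libraries.

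**Figure D3:**
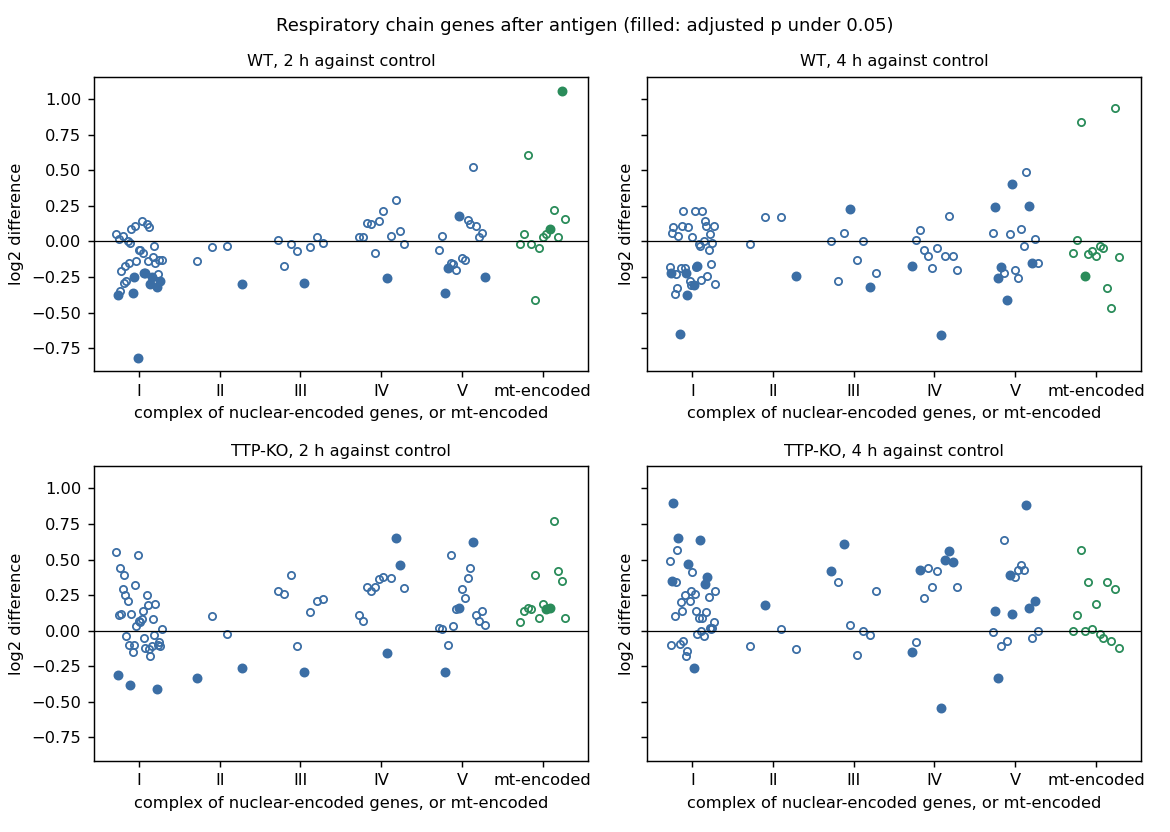
Log2 differences from the control of the same genotype after 2 h and 4 h of antigen, for nuclear members by complex and for mitochondrially encoded members alone (filled, edgeR adjusted p under 0.05). In WT most filled points of complex I lie below 0 at 2 h (10 lower), and in TTP-KO most filled points lie above 0 at 4 h (20 nuclear members higher, 4 lower).

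In the libraries labelled TTP-KO, 4 nuclear members were higher and 8 lower after 2 h (34.5% of all genes passed, 17.8% higher and 16.6% lower), and 20 were higher and 4 lower after 4 h (35.0% passed, 18.3% higher and 16.7% lower). The nuclear median was 0.11 and then 0.19, against -0.03 and 0.01 for all genes. At 2 h the decreases were in part the WT ones: Ndufs7 (-0.41), Ndufa10 (-0.31) and Atp5f1c (-0.29) fell, and so did Ndufa9 (-0.38) and Sdha (-0.33). Ndufs7 was at 57.5, 55.5 and 60.7 CPM in the TTP-KO control and 43.9, 44.9 and 42.0 after 2 h, without overlap (edgeR adjusted p = 2.21e-04). The increases were in Cox7c (0.65), Atp5mk (0.62) and Cox8a (0.46), small membrane subunits, and Atp5mc3 (0.16).

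Those increases were less stable than the decreases named. Cox7c lost its call without TTP-KO control replicate 2 or TTP-KO antigen 2 h replicate 1 (adjusted p 0.0565 and 0.0697), Atp5mc3 without TTP-KO control replicate 1 or antigen 2 h replicate 3 (0.0632 and 0.0766), and Atp5mk and Cox8a without any one of 5 of the 6 libraries (0.0596 to 0.167 and 0.0708 to 0.203; antigen 2 h replicate 3 is the exception). The nuclear count at 2 h went from 12 to 20 without TTP-KO antigen 2 h replicate 3, to 20 with DESeq2 and to 23 when only the groups compared were fitted.

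At 4 h the TTP-KO increases spread over all complexes, 7 in complex I, 1 in complex II, 2 in complex III, 4 in complex IV and 6 in ATP synthase. Atp5mk, a small subunit that helps ATP synthase pair up, was at 21.0, 22.3 and 20.6 CPM in the control and 36.8, 34.6 and 46.3 after 4 h, without overlap (0.88, SE 0.20, edgeR adjusted p = 0.00335). Ndufa5 (0.65), Ndufc1 (0.64) and Ndufs3 (0.33) of complex I and Uqcrb (0.61) of complex III also rose and kept their calls with each library left out. Ndufa12 (0.90 alone) gave 0.39 with its copy (edgeR adjusted p = 0.0877), and lost its call without TTP-KO antigen 4 h replicate 1 (0.0707). Cox7a2l (-0.54), Atp5f1c (-0.33), Ndufb5 (-0.26) and Cox4i1 (-0.15) fell. Ndufb5 lost the call without TTP-KO control replicate 3 (0.0805) or antigen 4 h replicate 2 (0.0861), and Cox4i1 without TTP-KO control replicate 2 or 3 or antigen 4 h replicate 3 (0.0572 to 0.0727). The nuclear count of 24 was 15, 13 and 14 without TTP-KO control replicate 2, antigen 4 h replicate 1 and antigen 4 h replicate 3, and 45 when only the groups compared were fitted.

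Mitochondrial members moved little against their control. In WT, mt-Co1 rose by 0.09 after 2 h, from 7125, 7296 and 7175 to 7766, 7482 and 7802 CPM, without overlap (edgeR adjusted p = 0.00805). In TTP-KO it rose by 0.16 (edgeR adjusted p = 3.25e-05), from 7292, 7311 and 7150 to 8145, 8191 and 7940 CPM, and mt-Cytb rose by 0.15 (0.00584, or 0.0572 without TTP-KO antigen 2 h replicate 1). mt-Atp6 passed alone in WT at 2 h (1.06) but not with its copy (0.06, edgeR adjusted p = 0.207), nor without any one of 5 of the 6 libraries (0.0532 to 0.128; WT control replicate 3 is the exception). At 4 h, mt-Nd4 was called lower in WT alone (-0.24), but not with its copy (-0.10, edgeR adjusted p = 0.154) or without WT control replicate 1 (0.0676). At 4 h in TTP-KO, edgeR called 0 mitochondrial members and 1 had an unadjusted p under 0.05. DESeq2 also called 0.

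With copies summed, 6 of 13 mitochondrial members were higher in TTP-KO after 2 h and 3 were lower in WT after 4 h (mt-Co2 -0.16, mt-Co3 -0.11 and mt-Atp6 -0.09). Without copies summed, 17.8% of all genes were higher in the first of these comparisons and 18.4% lower in the second. In TTP-KO after 2 h, mt-Co2, mt-Co3 and mt-Atp6 were higher by 0.15, 0.12 and 0.15.

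From 2 h to 4 h of antigen, nuclear members were called in both directions and mitochondrial members only lower. In WT, 13 nuclear members rose and 5 fell (31.1% of all genes passed, 15.2% higher and 15.9% lower), and in TTP-KO 10 rose and 3 fell (30.8% passed, 14.6% higher and 16.2% lower), while 3 mitochondrial members fell and none rose in each genotype. With copies summed, 5 mitochondrial members fell in WT and 7 in TTP-KO. The nuclear shares that rose, 16.7% in WT and 12.8% in TTP-KO, were close to those of all genes, and the median nuclear difference was -0.02 in WT and 0.09 in TTP-KO, against 0.02 and 0.03 for all genes. The difference between the genomes was not tested.

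The largest nuclear increases in both genotypes included Ndufs3 and Ndufs7, core subunits of complex I. Ndufs3 was at 33.2, 28.6 and 27.1 CPM in WT after 2 h and 37.6, 38.9 and 39.9 after 4 h (0.39, SE 0.09, edgeR adjusted p = 0.00176), and in TTP-KO it ran from 28.9 to 36.3 and then from 42.0 to 46.3 CPM (0.44, edgeR adjusted p = 5.59e-04). Neither pair of groups overlapped. Ndufs7 rose by 0.37 and 0.43, and in WT Ndufv2, which carries an iron-sulfur cluster, by 0.39. These calls were kept with each library left out. In TTP-KO the accessory subunits Ndufs5 (0.41, with overlapping libraries) and Ndufa9 (0.31) followed. Ndufs5 lost its call with its copy (0.21, edgeR adjusted p = 0.273) and without antigen 2 h replicate 2 or 3 or antigen 4 h replicate 1 or 3 (0.120 to 0.215), and Ndufa9 without antigen 2 h replicate 3 or antigen 4 h replicate 1 or 2 (0.0552 to 0.0627).

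In WT, Uqcrc1 (0.29), Atp5mc3 (0.23) and Atp5f1b (0.20) rose too. Cox7a2l fell by 0.40 in WT and by 0.38 in TTP-KO, and Cox4i1, the main subunit 4 of complex IV, by 0.21 and 0.27. Ndufb5, an accessory subunit of complex I, fell by 0.24 in WT and by 0.32 in TTP-KO, and Uqcrh, a small subunit of complex III, by 0.35 in WT. The WT calls were lost without antigen 2 h replicate 2 or 3 and without antigen 4 h replicate 2 or 3 for Ndufb5 (adjusted p 0.0517 to 0.157), and without antigen 2 h replicate 2 or 3 or antigen 4 h replicate 1 or 2 for Uqcrh (0.0561 to 0.0874). The TTP-KO call of Ndufb5 was lost without antigen 2 h replicate 3 (0.0525). Leaving out a library moved the TTP-KO nuclear count of 13 to 8, 7 and 8 (antigen 2 h replicate 2, antigen 2 h replicate 3 and antigen 4 h replicate 1). These comparisons use the same 2 h libraries as those above, so members low at 2 h appear in both.

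Among mitochondrial genes, mt-Co1 fell from 7766, 7482 and 7802 CPM to 6904, 6838 and 7107 in WT (-0.14, edgeR adjusted p = 1.51e-04) and from 8145, 8191 and 7940 to 7107, 7078 and 6857 in TTP-KO (-0.21, edgeR adjusted p = 9.69e-07), without overlap. mt-Atp8 fell by 0.27 in WT and by 0.21 in TTP-KO, where it lost the call without antigen 4 h replicate 3 (adjusted p = 0.0912). mt-Nd4 fell by 0.22 in WT alone and mt-Cytb by 0.16 in TTP-KO. The WT call of mt-Nd4 was lost with its copy (-0.11, 0.112) and without WT antigen 2 h replicate 2 (0.0814) or antigen 4 h replicate 2 (0.0522). With copies, mt-Co2, mt-Co3 and mt-Atp6 fell by 0.22, 0.18 and 0.16 in WT and by 0.22, 0.20 and 0.23 in TTP-KO, with edgeR adjusted p from 1.90e-05 to 0.00165. Whether strand was used in counting is not stated, so overlapping neighbours such as mt-Atp8 and mt-Atp6, and mt-Nd5 and its antisense neighbour mt-Nd6, may share reads.

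The 4 succinate dehydrogenase genes, all nuclear, showed small shifts. Sdhd was at 72.8, 81.4 and 72.3 CPM in the WT control, 63.4, 58.1 and 62.1 after 2 h and 65.9, 64.5 and 60.7 after 4 h, and the control did not overlap either antigen group. It fell by 0.30 and by 0.24 in WT, and by 0.26 in TTP-KO after 2 h. The 4 h call was lost without WT control replicate 2 (adjusted p = 0.0776) or WT antigen 4 h replicate 3 (0.0566), and the TTP-KO call without control replicate 3 (0.0506). Sdha fell by 0.33 in TTP-KO after 2 h. Increases from 2 h to 4 h in Sdhb (0.21) and Sdhc (0.20) in WT and Sdha (0.23) in TTP-KO had edgeR adjusted p of 0.0277, 0.0461 and 0.0206. Sdhb lost that call without any one of 4 of its 6 libraries (0.106 to 0.252), Sdhc without any of 6 (0.0797 to 0.198) and Sdha without any one of 3 (0.0595 to 0.193).

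Many genes that build and serve the chain rose from 2 h to 4 h, where 15.2% of all genes rose in WT and 14.6% in TTP-KO. Of 78 mitochondrial ribosomal protein genes, whose products translate the mitochondrial mRNAs, 39 rose and none fell in WT, and 42 rose and none fell in TTP-KO, with medians of 0.33 and 0.32. At 2 h against the control, 18 of these genes were lower and 2 higher in WT (17.3% and 17.8% of all genes), and 15 lower and 2 higher in TTP-KO (16.6% and 17.8%). Mrpl12 was at 24.3, 25.6 and 22.4 CPM in WT after 2 h and 42.5, 40.4 and 43.0 after 4 h, without overlap (0.80, edgeR adjusted p = 1.88e-08). Of 20 factors of mitochondrial translation and protein import, 11 rose in WT, among them the import channel gene Tomm40 (0.68), and in TTP-KO 9 rose and 1 fell. Of 18 complex I assembly genes 8 rose in WT and 5 in TTP-KO, and of 39 assembly genes of complexes II to V 10 and 14 rose, with none lower in either list. Timmdc1, a complex I assembly factor, rose by 0.99 in WT and by 0.65 in TTP-KO. Against the control at 4 h, 19.6% of all genes were higher in WT and 18.3% in TTP-KO. Of the 78 ribosomal protein genes, 22 and 26 were higher there, with 3 lower in each genotype. Of the 20 translation and import factors, 10 and 7 were higher and 0 lower. Of the 18 complex I assembly genes, 3 were higher and 1 lower in each genotype. Of the 39 for complexes II to V, 8 and 11 were higher and 3 lower in each.

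Genes acting on mitochondrial DNA and RNA were more mixed. Of 16 genes of mitochondrial DNA copying and transcription, 3 rose and 1 fell in WT from 2 h to 4 h, and 6 rose in TTP-KO (15.2% and 14.6% of all genes rose). Polrmt, the mitochondrial RNA polymerase, rose by 0.65 and 1.01, while Tfam, which packs mitochondrial DNA and starts its transcription, fell by 0.49 in WT (edgeR adjusted p = 0.00177). Of 18 genes of mitochondrial RNA processing and stability, 4 rose and 1 fell in each genotype, and against the control at 4 h 8 rose and 1 fell in WT and 8 rose in TTP-KO (19.6% and 18.3% of all genes rose there). Tbrg4, an RNA stability factor, rose by 0.93 in WT at 4 h.

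Of 11 regulators of nuclear respiratory genes, 5 rose in WT from 2 h to 4 h, and in TTP-KO 6 rose and 1 fell, beside 15.2% and 14.6% of all genes that rose. Esrra, which encodes ERRα, was at 48.3, 49.2 and 49.5 CPM in the WT control, 40.4, 40.9 and 41.4 after 2 h and 61.9, 62.5 and 62.8 after 4 h, 3 ranges that do not overlap. It rose by 0.61 in WT and by 0.51 in TTP-KO (edgeR adjusted p = 2.25e-07 and 4.66e-06). Ppargc1b, the coactivator PGC-1β, stayed at a low level but rose from 1.65, 1.24 and 1.62 to 4.86, 4.12 and 4.37 CPM in WT (1.56, edgeR adjusted p = 1.39e-04), and by 0.89 in TTP-KO. Pprc1, a relative of it, rose by 0.54 and 0.77. Cycs, the electron carrier cytochrome c, was higher than in the control by 0.55 at 2 h and by 0.61 at 4 h in WT.

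Libraries of the 2 genotypes were compared within each condition. In the control, edgeR called 0 nuclear and 0 mitochondrial members (1.65% of all genes passed), 3 nuclear and 0 mitochondrial members had an unadjusted p under 0.05, and DESeq2 also called 0. The smallest p belonged to Ndufa9 (0.29 higher in TTP-KO, edgeR adjusted p = 0.140) and Atp5f1b (0.11, 0.204). After 2 h, 3 nuclear members were higher in TTP-KO (2.79% passed, 0.909% higher), namely Ndufb4, Ndufs6 and Ndufb10. Ndufb4 was at 5.46, 2.03 and 3.67 CPM in WT and 10.1, 10.3 and 7.41 in TTP-KO (1.34, SE 0.26, edgeR adjusted p = 0.00261), but with its copy gave 0.51 (0.0887).

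Ndufs6 (0.53, edgeR adjusted p = 0.0321) lost its 2 h call without WT antigen 2 h replicate 1 or 3 or TTP-KO antigen 2 h replicate 1 or 2 (0.102 to 0.158), Ndufb10 (0.28, 0.0472) without any of the 6 libraries (0.0619 to 0.176), and the nuclear count was 1 without each of those 4 libraries. The only mitochondrial call at 2 h, mt-Nd5 (0.14 higher in TTP-KO, edgeR adjusted p = 0.0469), was lost without any of the 6 libraries (0.103 to 0.221), with RLE scaling, with DESeq2, with no low-count filter and with copies summed (0.0737).

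After 4 h of antigen most nuclear members that passed were higher in TTP-KO. Of 78, 10 were higher and 1 lower (14.1%, where 5.22% of all genes passed, 1.83% higher and 3.40% lower), and their median difference was 0.27 against 0.01 for all genes and 0.09 for mitochondrial members. For 46 nuclear members all 3 TTP-KO libraries lay above all 3 WT libraries and for 4 below, where 12.2% and 12.8% of all genes did so. Of the 10 higher members, 8 belong to complex I, which has 37 of the 78, 1 to complex III and 1 to ATP synthase. All 8 carry symbols of accessory subunits, and 1 of them is Ndufb1, which is not protein-coding in GENCODE M21. edgeR called 0 of 13 mitochondrial members, DESeq2 also called 0, and 4 had an unadjusted p under 0.05.

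Ndufc1, an accessory subunit of complex I, was at 10.6, 8.79 and 9.15 CPM in WT after 4 h and at 17.5, 13.1 and 17.6 in TTP-KO. The groups did not overlap, and the difference of 0.76 (SE 0.17, edgeR adjusted p = 0.00522) was called with each library left out. Uqcr11, a small subunit of complex III, was at 33.9, 33.0 and 32.8 against 48.8, 45.7 and 57.1 CPM, also without overlap (0.61, SE 0.13, edgeR adjusted p = 0.00949). Without TTP-KO antigen 4 h replicate 3 it gave 0.51 (0.0603). Ndufs5 (0.56), which gave 0.49 with its copy (0.0394), and Ndufv3 (0.53) each lost the call without any one of 5 of 6 libraries (0.0642 to 0.126 and 0.0700 to 0.144, TTP-KO antigen 4 h replicate 2 being the exception).

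Atp5pf, the F6 subunit of the ATP synthase stalk, was at 146, 134 and 135 CPM in WT after 4 h and at 165, 146 and 169 in TTP-KO, where the nearest values of the groups round to the same level (0.21, SE 0.06, edgeR adjusted p = 0.0372). It lost the call without WT antigen 4 h replicate 2 or 3 or TTP-KO antigen 4 h replicate 1 or 3 (0.152 to 0.215).

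Atp5mc3 was the only nuclear member called lower in TTP-KO at 4 h, at 468, 424 and 429 CPM against 502, 488 and 516 in WT, without overlap (-0.19, SE 0.05, edgeR adjusted p = 0.0136). That call was lost without WT antigen 4 h replicate 3, TTP-KO antigen 4 h replicate 2 or TTP-KO antigen 4 h replicate 3 (0.0870 to 0.102). The count of 11 nuclear members at 4 h depended on single libraries and on the tool: it was 6, 3 and 4 without WT antigen 4 h replicate 1, 2 or 3 and 3 and 2 without TTP-KO antigen 4 h replicate 1 or 3, but 22 with DESeq2, 25 with no filter on low counts and 42 when only the 2 groups were fitted.

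Whether the antigen response itself differed between genotypes was tested as an interaction. At 2 h, edgeR called 0 members (0.0497% of all genes passed), with 5 nuclear and 1 mitochondrial at an unadjusted p under 0.05, and DESeq2 also called 0. The smallest p were those of Ndufb4 (1.36, edgeR adjusted p = 0.280) and Atp5po (0.29, 0.565). At 4 h, 1 nuclear member passed (0.689% of all genes passed, 0.412% with a lower value in TTP-KO) and 27 had an unadjusted p under 0.05, while edgeR called 0 mitochondrial members (2 at an unadjusted p under 0.05). That gene was Atp5mc3, whose rise over control was 0.40 in WT and 0.12 in TTP-KO, a difference of -0.28 (SE 0.07, edgeR adjusted p = 0.0485). This call was lost in 10 of the 12 fits that left out a library (adjusted p from 0.0580 to 0.150), namely every one but those without WT control replicate 3, where 5 nuclear members were called, and without TTP-KO antigen 4 h replicate 1. The nuclear median of this interaction was 0.29, against 0.01 for all genes. For Cox7a2l, which fell in both genotypes, the interaction was 0.10 at 2 h (edgeR adjusted p = 0.849) and 0.12 at 4 h (0.613).

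After antigen, the genotype difference of nuclear members followed their coding length, a division chosen after the values were seen. A length (longest coding sequence in GENCODE M21, GRCm38) was found for 76 of 78 nuclear members. At 4 h the median difference, TTP-KO minus WT, was 0.48 for the 20 members of up to 300 bases, 0.35 for the 24 of 301 to 450, 0.07 for the 21 of 451 to 900 and 0.01 for the 11 longer ones. All 20 of the shortest members lay above 0. Other genes of the same 4 length classes had medians of 0.14, 0.05, -0.00 and 0.01. Across the 76 members, Spearman's rho of difference against length was -0.78 at 4 h, -0.66 at 2 h and 0.29 in the control, and over 11704 other genes 0.03, -0.14 and -0.02. These are descriptions across genes, which share libraries and are not independent replicates.

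The order by length was not the same in all comparisons. rho was -0.81 for the TTP-KO response at 2 h and -0.67 at 4 h, and -0.40 and 0.27 for the WT response. From 2 h to 4 h it was 0.59 in WT, where longer members had the higher values, and 0.13 in TTP-KO. The 80 cytosolic ribosomal protein genes, whose coding lengths were not examined, had a median genotype difference of 0.24 at 4 h and -0.10 in the control.

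**Figure D4:**
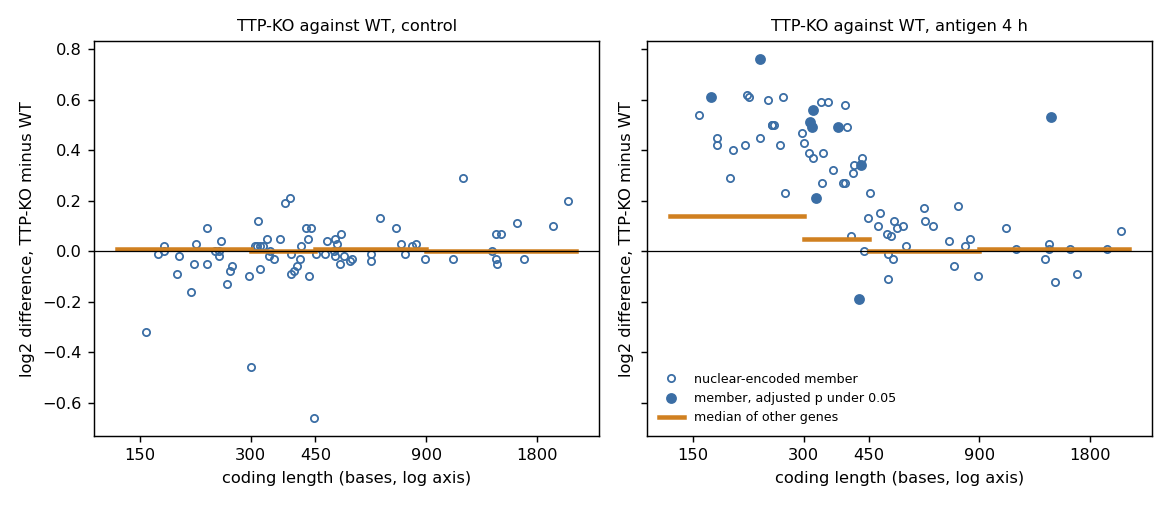
Log2 difference between TTP-KO and WT against coding length (log axis) for 76 nuclear members, in the control and after 4 h of antigen (filled, edgeR adjusted p under 0.05; orange lines, medians of other genes in the same length classes). At 4 h the median falls from 0.48 for members of up to 300 bases to 0.01 for those over 900 bases, and in the control no class median exceeds 0.07.

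By library, the mean of the 44 members of up to 450 bases minus that of the 32 longer ones, relative to the WT control mean (log2), was 0.31, 0.17 and 0.37 in TTP-KO after 4 h and -0.03, -0.13 and -0.02 in WT after 4 h. After 2 h it was 0.58, 0.24 and 0.06 in TTP-KO and -0.02, 0.26 and 0.13 in WT, and in the controls -0.04, -0.08 and -0.03 in TTP-KO and 0.25, -0.06 and -0.19 in WT. At 4 h the genotypes did not overlap, but at 2 h they did, and WT control replicate 1 lay within the TTP-KO 4 h range. The short members also varied more within groups, with a median pooled SD of 0.20 (log2) against 0.09 for the longer ones.

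**Figure D5:**
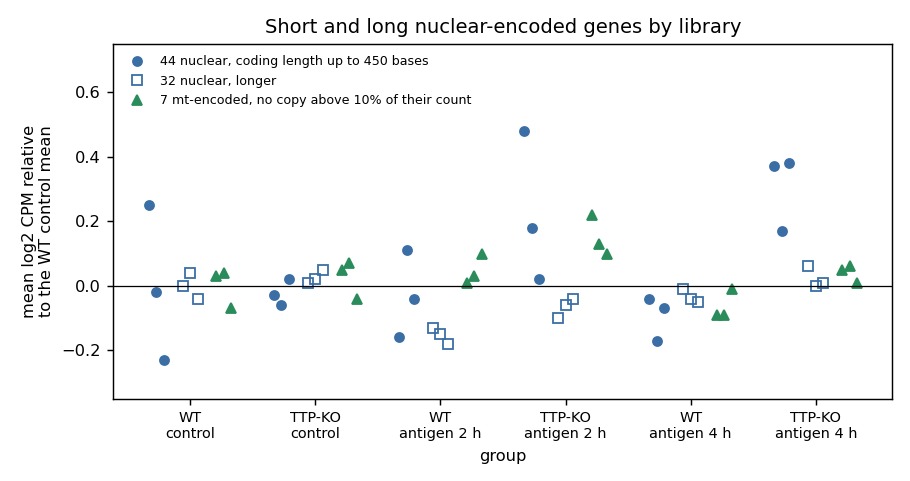
Mean log2 CPM relative to the WT control mean, in each of 18 libraries, for 44 nuclear members with coding lengths of up to 450 bases, 32 longer ones and the 7 mitochondrially encoded members with no copy above 10% of their count. The short members spread most, and their excess over the long ones runs from 0.17 to 0.37 in TTP-KO after 4 h and from -0.19 to 0.25 in the WT control.

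Markers of basophils and of other cells also differed between the genotypes. At 4 h, 5 of 10 basophil markers were lower in TTP-KO and 0 higher, with summed levels of 24655 to 25121 CPM against 25719 to 27255 in WT. The basophil sum was not lower in the other conditions. It was 25795 to 27268 CPM in the TTP-KO control against 25057 to 26320 in the WT control (1 marker higher and 2 lower). After 2 h of antigen it was 32818 to 33368 against 31821 to 32962 (1 higher and 1 lower). Of 5 monocyte and macrophage markers, 3 were higher in TTP-KO at 4 h, with sums of 824 to 856 CPM against 698 to 704. The summed level of 8 neutrophil markers at 4 h was 1665 to 1902 CPM in TTP-KO against 843 to 939 in WT (6 of 8 higher). That of 6 dendritic cell markers was 2526 to 2674 against 4038 to 4184 (4 of 4 tested lower). For 5 mast cell markers it was 119 to 121 against 197 to 208 (2 of 3 tested lower). Of 2 erythroid markers tested 1 was lower, and 0 platelet, eosinophil or T and NK cell markers were called at 4 h. Among all genes tested, 1.83% were higher and 3.40% lower in that comparison. The summed level of 5 B cell markers was 22.3 to 29.0 CPM in the TTP-KO control against 56.3 to 60.8 in the WT control, and at 4 h 5 of 5 were lower in TTP-KO. No listed marker was at 0 in all libraries. In the control the neutrophil sum was likewise higher in TTP-KO, at 1652 to 1983 against 1097 to 1267. The part of these cell types in the genotype differences of members was not tested, and in bulk libraries fewer cells of a type and less RNA per cell cannot be told apart.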

How the data were processed

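RNA was polyA-selected. The authors deposited 1 table of estimated counts per gene, not normalized, with 18 library columns. Per the submitters' processing notes, cutadapt 3.5, STAR 2.7.10a, RSEM 1.3.1, R 4.4.1, R 4.4.0 and the build GRCm39 were used, and for the annotation release and strand nothing is given in the sources used here. Columns named as unstimulated were taken as control OVA.

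Estimated counts were rounded and fitted in R 4.3.3 with edgeR 4.0.16: filterByExpr (14076 of 56413 genes), TMM, robust quasi-likelihood, a mean for each of 6 groups (12 residual degrees of freedom), 11 contrasts, Benjamini-Hochberg adjustment over all genes tested and a threshold of 0.05. CPM are TMM-scaled. On simulated data for TTP-KO against WT in the control, over 14076 genes, 63 of 100 genes changed 1.5-fold and 87 of 100 changed 2-fold were recovered, with 7 others called. The changed genes were drawn only from those above a minimum average level, so recovery among lower genes, or of smaller changes, was not simulated.

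Alternatives were DESeq2 1.42.0, RLE scaling, no low-count filter, only the groups compared, a replicate block and each library left out. Near-identical copies (blastn 2.17.0, at least 97% identity over at least 100 bases and 50% of the copy's transcript in GENCODE M21) were summed with their member, an alternative chosen after seeing the data. Genes overlapping their member in the genome were left out of these sums. Promoters are from RefSeq (GRCm38.p6). The members, lists and markers were chosen with earlier results of these data known. Named nuclear genes are the 4 largest increases and decreases called per comparison, or the 2 smallest p where none was called, with all mitochondrial members, succinate dehydrogenase genes and isoform pairs. A gene that this rule names is not reported here. Other genes named were chosen after their values were seen.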

Additional observations from a re-analysis of the deposited data

Results flagged for a closer look

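The response of Atp5mc3 to 4 h of antigen differed between the genotypes by -0.28 (log2, TTP-KO minus WT, SE 0.07, edgeR adjusted p = 0.0485), being 0.40 in WT and 0.12 in TTP-KO, where all 3 antigen libraries lay above all 3 control libraries in each genotype. The call was lost in 10 of the 12 fits that left out a library (adjusted p from 0.0580 to 0.150) and was kept without WT control replicate 3 and without TTP-KO antigen 4 h replicate 1.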

How the results depend on the processing

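Among the single-gene calls, no direction was reversed in any setting run, but calls were lost. Directions of values that were not called were not compared between settings. Counts by DESeq2 moved to 20 nuclear and 4 mitochondrial members in TTP-KO at 2 h, 2 mitochondrial in WT at 4 h, 1 nuclear and 0 mitochondrial for the genotypes at 2 h, 22 nuclear at 4 h and 3 nuclear for the 4 h interaction. With only the groups compared they were 23 nuclear and 5 mitochondrial in TTP-KO at 2 h, 45 and 1 at 4 h, 42 and 3 for the genotypes at 4 h and 3 nuclear for the interaction at 4 h. With no low-count filter they were 0 mitochondrial in WT at 2 h, 1 in TTP-KO at 4 h, 5 nuclear and 0 mitochondrial for the genotypes at 2 h, 25 and 3 at 4 h, and 1 and 5 nuclear for the interactions at 2 h and 4 h. RLE scaling gave 0 mitochondrial for the genotypes at 2 h. The replicate block gave 1 mitochondrial in WT at 2 h, and 1 nuclear and 0 mitochondrial for the genotypes at 2 h. Same-numbered libraries did not deviate together from their group means (correlations from -0.0814 to 0.0290 over 27 pairs, 4 best with their own number). These correlations cannot decide whether same-numbered libraries share an animal or culture. With copies summed, mitochondrial counts were 1 in WT at 2 h, 3 in WT at 4 h, 6 in TTP-KO at 2 h, 5 and 7 from 2 h to 4 h and 0 for the genotypes at 2 h, where 1 nuclear member was called. Counts over fits leaving out a library ran, for nuclear members, from 9 to 20 in TTP-KO at 2 h, 13 to 22 at 4 h, 7 to 16 from 2 h to 4 h, 1 to 3 and 2 to 9 for the genotypes at 2 h and 4 h, and 0 to 5 for the 4 h interaction. For mitochondrial members they ran from 1 to 2 in WT at 2 h, 0 to 2 at 4 h, 1 to 4 in TTP-KO at 2 h, 0 to 1 at 4 h and 0 to 0 for the genotypes at 2 h. In the order WT control, TTP-KO control, WT 2 h, TTP-KO 2 h, WT 4 h and TTP-KO 4 h, the mitochondrial share with copies was 2.54%, 2.60%, 2.12%, 2.29%, 2.21% and 2.31%. The log2 ratio was -1.26, -1.22, -1.37, -1.32, -1.22 and -1.16 over members with a mean of at least 500, -2.98, -2.83, -3.39, -3.17, -2.95 and -2.86 as a difference of median log2 CPM, and -1.73, -1.73, -1.83, -1.79, -1.69 and -1.58 with copies. The causes of these changes were not tested. Of 129 single-gene calls, 18 were lost with copies, 15 with no filter, 15 with only the groups compared, 12 with the block and 9 with RLE, 18 of 128 with DESeq2, and 241 of 780 when a library was left out. Members near 50 counts are the least precise.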

Other observations

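Of the genes that serve the subunits, few were called between the genotypes, in both directions. Tufm, the elongation factor of mitochondrial translation, was at 18.8, 13.0 and 21.0 CPM in WT and 9.50, 9.54 and 7.89 in TTP-KO after 2 h of antigen, without overlap (-0.96, SE 0.16, edgeR adjusted p = 6.84e-04), and at 4 h the difference was 0.06 (0.887). Ndufab1, the acyl carrier protein that is also a complex I subunit, was higher in TTP-KO by 0.44 at 2 h (0.00628) and by 0.29 at 4 h (0.0340). Cox17, a copper chaperone of complex IV, was at 54.8, 54.1 and 58.3 CPM in WT and 84.9, 72.7 and 83.1 in TTP-KO after 4 h (0.53, edgeR adjusted p = 0.0135), again without overlap. It was the 1 gene called higher among 39 assembly genes of complexes II to V at 4 h, where 1.83% of all genes were higher and 3.40% lower. Of the 39, 2 were lower: Cox11, another copper factor of complex IV (-0.50, edgeR adjusted p = 0.0288), and Ttc19, an assembly factor of complex III (-0.27, 0.0240).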
